A study of Rattus norvegicus with 46 samples.

Results

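The genes described here encode the enzymes that burn fuel in muscle mitochondria: 11 genes of the citric acid cycle, 3 genes of the pyruvate dehydrogenase complex and 18 genes of fatty acid uptake, activation and oxidation. They were listed by name, with earlier results of these data known, and each was read from its brightest probe set. All 32 of the 32 listed genes were measured, among 9289 genes tested, and each lay above the array's median on 46 of 46 arrays, so the filter on low values removed none. Expression was measured on 46 Affymetrix arrays, 1 for each hindleg of 23 female Sprague-Dawley rats. Every rat had been anaesthetised with isoflurane, paralysed with the post-synaptic neuromuscular blocker α-cobrotoxin and kept on a ventilator. In every rat a lever arm moved the left ankle passively at 13.3 cycles per minute, for 6 h in the shortest experiments and for 12 h per day in the longer ones (loaded leg), while the other leg was left without movement (unloaded leg). The loaded and unloaded legs of 13 rats were taken after 6 h to 4 d, those of 4 rats after 5 to 8 d and those of 6 rats after 9 to 14 d.

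There was no untreated rat, so the group taken at 6 h to 4 d is the earliest point and not a healthy baseline, and each window pools rats of different durations. Samples were pieces of the proximal gastrocnemius, a calf muscle of mixed fibre types, so fewer cells of a type and less RNA per cell cannot be told apart. All values are log2 expression values of the authors' normalised table, on which a difference of 1 is a doubling. A gene passed the test when limma's p-value, adjusted by the Benjamini-Hochberg method over all 9289 genes, lay under 0.05.

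In the citric acid cycle, acetyl groups from sugar, fat and amino acids are burned to carbon dioxide, and the electrons are handed to the respiratory chain. Pyruvate dehydrogenase is the gate through which carbohydrate enters the cycle. Fatty acids enter through the carnitine shuttle and are then shortened by a repeating spiral of dehydrogenation, hydration, a further dehydrogenation and thiolysis, which releases acetyl groups. In skeletal muscle these enzymes are most abundant in slow and oxidative fibres and are known to decline with inactivity.

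The muscle label was checked against 6 skeletal muscle genes. Ckm, the muscle creatine kinase, lay between 13.50 and 14.02 over all arrays, and Acta1, skeletal actin, between 13.69 and 14.33. The slow-fibre content differed widely between pieces: the mean of 9 slow-fibre contractile genes ranged over the 46 arrays with a lowest value of 6.53 and a highest value of 12.33. Adipocyte markers were present at a low level, with a mean over 8 genes between 6.22 and 8.07. Rats 35 and 37, both of the earliest window, had lower cycle and pyruvate dehydrogenase means than the other 11 rats of that window, in both legs. In fat oxidation they did not stand apart. Rat 33 had 10.33 (loaded) and 10.01 (unloaded), against 10.38 and 10.31 in rat 35. The counts, Dlat and Hadh are given without rats 35 and 37 too. Leaving out such low rats raises the early mean and so enlarges a fall. Labels carry date codes, and 1 code (10 rats), here the shared date code, covers all 3 windows. Codes of 1, 2 and 6 rats occur only at 6 h to 4 d. Another code occurs only later, in 2 rats at 5 to 8 d and 2 at 9 to 14 d. Between rats of these codes, early and later windows cannot be told apart from the date code.

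In the later windows the cycle and pyruvate dehydrogenase genes were lower than at 6 h to 4 d, in loaded and unloaded legs. Only some of the fat oxidation genes passed the test. Because of the date codes, these differences cannot be credited to time under paralysis alone. Within the shared date code fewer genes passed, as given below. In the loaded legs at 5 to 8 d, 11 of 11 cycle genes, 2 of 3 pyruvate dehydrogenase genes and 4 of 18 fat oxidation genes were lower than at 6 h to 4 d, 17 of the 32 in all, and 0 were higher. Of all genes tested in that comparison 12% were lower and 26.9% higher. At 9 to 14 d against 6 h to 4 d, 22 were lower and 0 higher in loaded legs (11 of 11, 3 of 3 and 8 of 18), where 15.2% of all genes were lower and 29% higher. The median log2 difference at 9 to 14 d in loaded legs was -0.64 for the cycle, -0.92 for pyruvate dehydrogenase and -0.46 for fat oxidation, beside 0.08 for all genes. At 5 to 8 d the 3 medians were -0.71, -0.83 and -0.30, beside 0.06 for all genes.

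In the unloaded legs more genes passed, but not with the date code as a block or within the shared date code, as given below. At 5 to 8 d, 24 of the 32 genes were lower than at 6 h to 4 d and 0 higher, namely 11 of 11 in the cycle, 3 of 3 in pyruvate dehydrogenase and 10 of 18 in fat oxidation, where 12.3% of all genes were lower and 23.6% higher. At 9 to 14 d, 25 were lower and 0 higher (11 of 11, 3 of 3 and 11 of 18), where 16.9% of all genes were lower and 28.7% higher. The medians at 9 to 14 d were -0.65, -0.95 and -0.48, beside 0.07 for all genes, and at 5 to 8 d -0.81, -0.96 and -0.52, beside 0.05. Each of the 17 and 22 genes of the loaded legs also passed as lower in the unloaded legs. Both legs come from the same rats with the same date codes, so the legs are not independent of each other. A gene that passed in unloaded legs alone is not shown to differ between legs. The test of that difference, the change with time of the loaded minus unloaded value, passed for 0 of the 32 genes at 5 to 8 d and at 9 to 14 d against 6 h to 4 d, where 0% of all genes were higher and 0% lower.

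**Figure D1:**
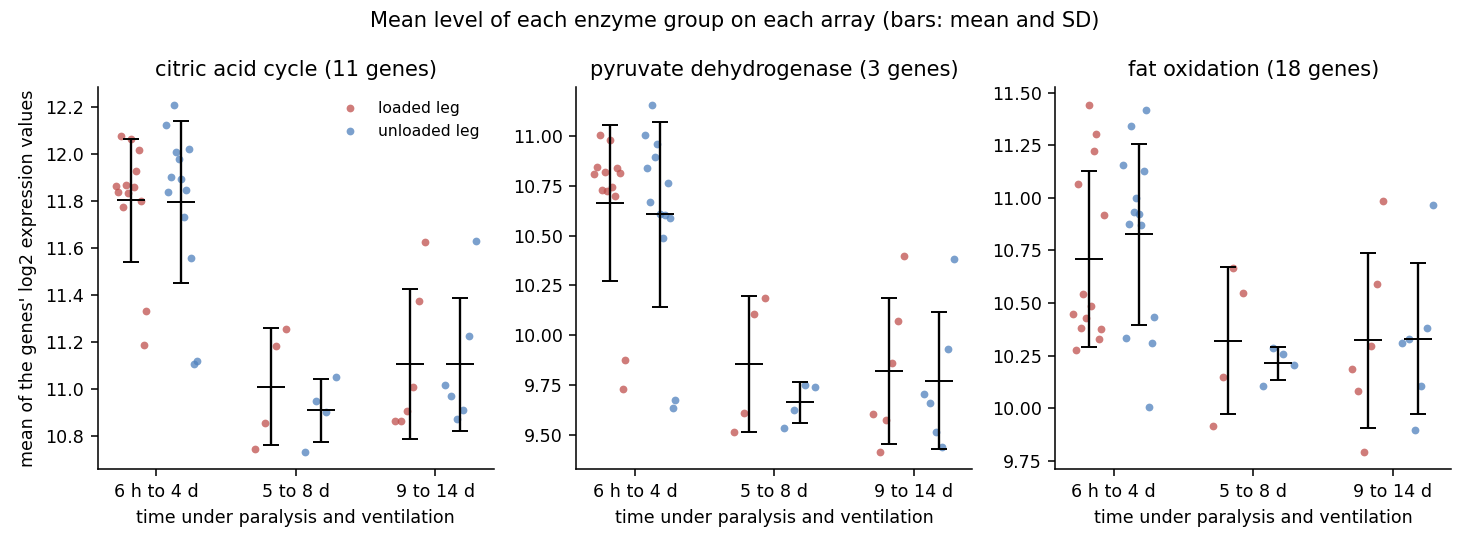
Mean log2 expression over the genes of each enzyme group on each of the 46 arrays, by window and leg (loaded left, unloaded right), with the group mean and SD. Most arrays of 6 h to 4 d lie above those of the later windows in the cycle and pyruvate dehydrogenase panels, apart from both legs of rats 35 and 37, whose pyruvate dehydrogenase means were 9.73 and 9.88 in the loaded legs and 9.63 and 9.68 in the unloaded legs.

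The lower levels were already present at 5 to 8 d. The mean of the 11 cycle genes in loaded legs was 11.80 ± 0.26 at 6 h to 4 d, 11.01 ± 0.25 at 5 to 8 d and 11.11 ± 0.32 at 9 to 14 d (SD, n = 13, 4 and 6), and in unloaded legs it was 11.79 ± 0.34, 10.91 ± 0.13 and 11.11 ± 0.28. The pyruvate dehydrogenase mean in loaded legs was 10.66 ± 0.39, 9.85 ± 0.34 and 9.82 ± 0.37 in the same order of windows, and in unloaded legs 10.61 ± 0.46, 9.66 ± 0.10 and 9.77 ± 0.34. Between 9 to 14 d and 5 to 8 d, 0 of the 32 genes passed in loaded legs, where 0.161% of all genes were higher and 0.0646% lower, and 0 passed in unloaded legs, where 0.183% were higher and 0.0431% lower. At an unadjusted p under 0.05 there was 1 gene in loaded legs (Idh2) and 2 in unloaded legs (Idh2 and Echs1), higher at 9 to 14 d. The 95% intervals of these differences reached -2.08 in loaded and -2.05 in unloaded legs, so that the later windows are not shown to be alike.

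The first steps of the cycle include the gene with the deepest fall in that group. Idh2, the mitochondrial NADP-dependent isocitrate dehydrogenase, had 9.69, 10.03, 10.33 and 10.65 in the 4 loaded legs at 5 to 8 d, against a lowest, median and highest value of 11.67, 11.88 and 12.64 in the 13 loaded legs at 6 h to 4 d. The ranges did not overlap, and the loaded legs were 3.69-fold lower (log2 difference -1.88, SE 0.25, adjusted p = 1.14e-05). In the unloaded legs at 5 to 8 d, Idh2 had 9.91, 11.52, 9.29 and 9.74, against 11.42, 12.38 and 12.78. The unloaded leg of rat 43, with 11.52, lay inside the early range and the other three lay below it, and the fit gave a difference of -2.10 (SE 0.30, adjusted p = 1.62e-05). At 9 to 14 d Idh2 was 2.34-fold lower in loaded and 2.21-fold lower in unloaded legs than at 6 h to 4 d.

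Cs encodes citrate synthase, which joins acetyl groups to oxaloacetate and is widely used as a measure of mitochondrial content. In loaded legs at 9 to 14 d it had a lowest, median and highest value of 11.44, 11.51 and 12.04, against 11.59, 12.18 and 12.37 at 6 h to 4 d. It fell by 0.49 (SE 0.11, adjusted p = 0.00126) in loaded legs and by 0.54 (SE 0.12, adjusted p = 0.00118) in unloaded legs, and the ranges overlapped. Another, dimmer probe set of Cs gave smaller differences, -0.26 in loaded and -0.27 in unloaded legs (adjusted p over all probe sets 0.0375 and 0.0102). The 3 subunits of the NAD-dependent isocitrate dehydrogenase, Idh3a, Idh3b and Idh3g, moved by nearly the same amount at 9 to 14 d, with differences of -0.71, -0.64 and -0.62 in loaded legs and -0.64, -0.65 and -0.59 in unloaded legs. Their adjusted p-values lay between 1.38e-04 (Idh3b in loaded legs) and 0.00686 (Idh3a in unloaded legs).

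The later steps fell alike. Ogdh, the dehydrogenase subunit of the 2-oxoglutarate complex, was 1.35-fold lower in loaded and 1.38-fold lower in unloaded legs at 9 to 14 d, and Dld, the subunit it shares with pyruvate dehydrogenase, 1.55-fold and 1.58-fold lower. Suclg1 and Sucla2 encode the common and the ADP-specific subunit of succinyl-CoA ligase. Sucla2 fell by 0.62 in loaded legs (SE 0.10, adjusted p = 6.27e-05) and by 0.72 in unloaded legs (SE 0.13, adjusted p = 1.65e-04), and Suclg1 fell by 0.66 and 0.52.

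Mdh2, the malate dehydrogenase that closes the cycle, had the smallest p of the cycle genes at 9 to 14 d in both legs. In the 6 loaded legs at 9 to 14 d it had a lowest, median and highest value of 12.41, 12.52 and 12.86, against 12.81, 13.31 and 13.40 in the 13 loaded legs at 6 h to 4 d. It fell by 0.70 (SE 0.09, adjusted p = 2.54e-06) there and by 0.68 (SE 0.11, adjusted p = 3.56e-05) in unloaded legs. In the 4 loaded legs at 5 to 8 d it had 12.47, 12.29, 12.61 and 12.69, and in the unloaded legs of the same rats 12.43, 12.35, 12.18 and 12.47. All 8 of these values lay below the lowest value of their leg at 6 h to 4 d, which was 12.81 in loaded and 12.69 in unloaded legs. Mdh1, the cytosolic malate dehydrogenase of the malate-aspartate shuttle, was more variable, with a difference at 9 to 14 d of -0.92 (SE 0.29, adjusted p = 0.0148) in loaded and -0.97 (SE 0.31, adjusted p = 0.013) in unloaded legs. With the date code as a block these were -0.60 (adjusted p = 0.212) and -0.24 (adjusted p = 0.623).

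**Figure D2:**
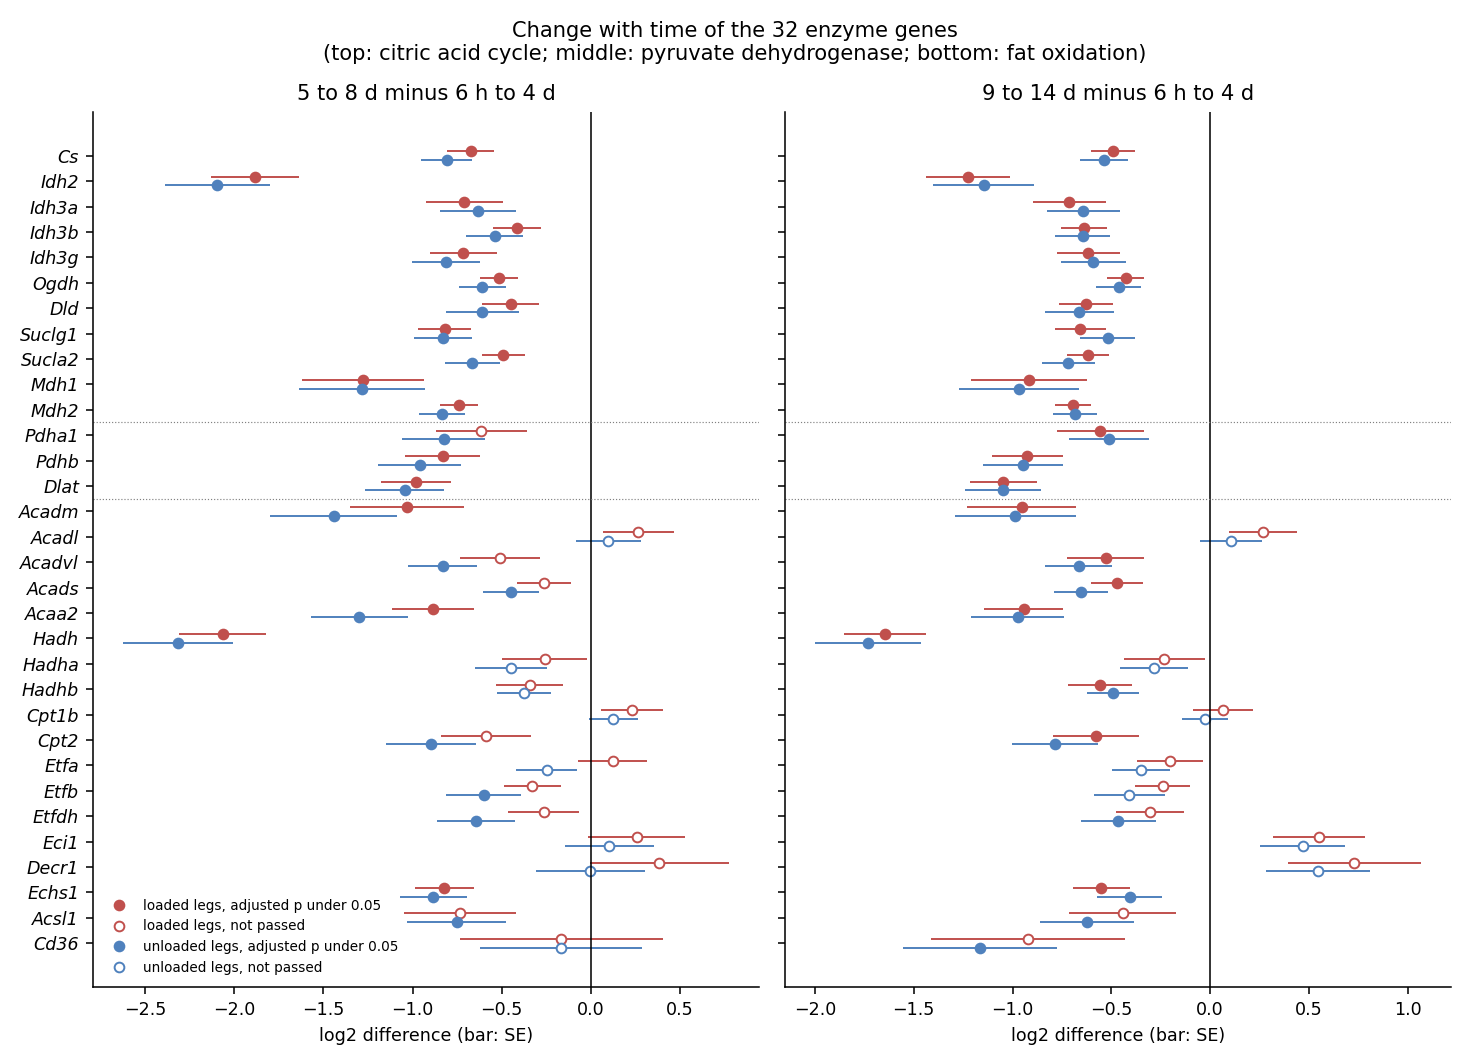
Log2 difference of each of the 32 genes, 5 to 8 d minus 6 h to 4 d (left) and 9 to 14 d minus 6 h to 4 d (right), in loaded legs (red, upper of each pair) and unloaded legs (blue), with the SE of the fit; filled points passed at an adjusted p under 0.05. All 11 cycle genes lie left of 0 and are filled in both panels, and the fat oxidation genes at the bottom spread on both sides of 0.

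The pyruvate dehydrogenase subunits also fell. Dlat, the acetyl-transferring core of the complex, had 9.78, 9.71, 9.93 and 10.10 in the loaded legs at 5 to 8 d and a lowest, median and highest value of 9.56, 9.82 and 10.03 in those at 9 to 14 d, against 9.80, 11.004 and 11.22 at 6 h to 4 d. Its level at 9 to 14 d was 2.07-fold lower in loaded legs (log2 difference -1.05, SE 0.17, adjusted p = 3.97e-05) and 2.07-fold lower in unloaded legs (-1.05, SE 0.19, adjusted p = 1.41e-04). The early and later ranges met only through rats 35 and 37, whose loaded legs had 9.80 and 9.97 and whose unloaded legs had 9.75 and 9.78, while the other 11 rats had at least 10.58. Without these 2 rats the differences at 9 to 14 d were -1.22 in loaded and -1.23 in unloaded legs.

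Pdhb, the beta subunit of the first enzyme, was 1.90-fold lower in loaded and 1.93-fold lower in unloaded legs at 9 to 14 d (adjusted p = 2.91e-04 and 5.99e-04). Pdha1, its alpha subunit and the target of the inhibiting kinases, fell least of the 3, by 0.56 in loaded legs (SE 0.22, adjusted p = 0.0431) and by 0.51 in unloaded legs (SE 0.20, adjusted p = 0.0403). In the loaded legs at 5 to 8 d it did not pass (difference -0.61, adjusted p = 0.059). Its calls at 9 to 14 d are fragile: the one in loaded legs was lost in 17 of the alternatives and the one in unloaded legs in 15. Pdha1 and Dlat each have another probe set of similar brightness, so near-identical copies cannot be told apart, and the other probe set gave at 9 to 14 d -0.55 in loaded and -0.53 in unloaded legs for Pdha1 (adjusted p over all probe sets 0.0509 and 0.0374) and -1.03 and -1.05 for Dlat.

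Among the fat oxidation enzymes the largest fall was at the third step of the spiral. Hadh, the hydroxyacyl-CoA dehydrogenase for medium and short chains, had 9.07, 9.02, 8.96 and 9.17 in the 4 loaded legs at 5 to 8 d, against a lowest, median and highest value of 9.83, 11.10 and 11.88 in the 13 loaded legs at 6 h to 4 d. In the unloaded legs it had 9.18, 9.29, 8.18 and 8.67 at 5 to 8 d, against 9.66, 11.34 and 11.82. The ranges did not overlap in either leg. The fall was 4.19-fold in loaded legs (log2 difference -2.07, SE 0.24, adjusted p = 3.5e-06) and 4.97-fold in unloaded legs (-2.31, SE 0.31, adjusted p = 8.57e-06). At 9 to 14 d it was 3.13-fold lower in loaded and 3.32-fold lower in unloaded legs than at 6 h to 4 d, and here the ranges met through rat 35 in loaded legs and rats 35 and 37 in unloaded legs. Without these 2 rats the differences at 9 to 14 d were -1.79 in loaded and -1.97 in unloaded legs.

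**Figure D3:**
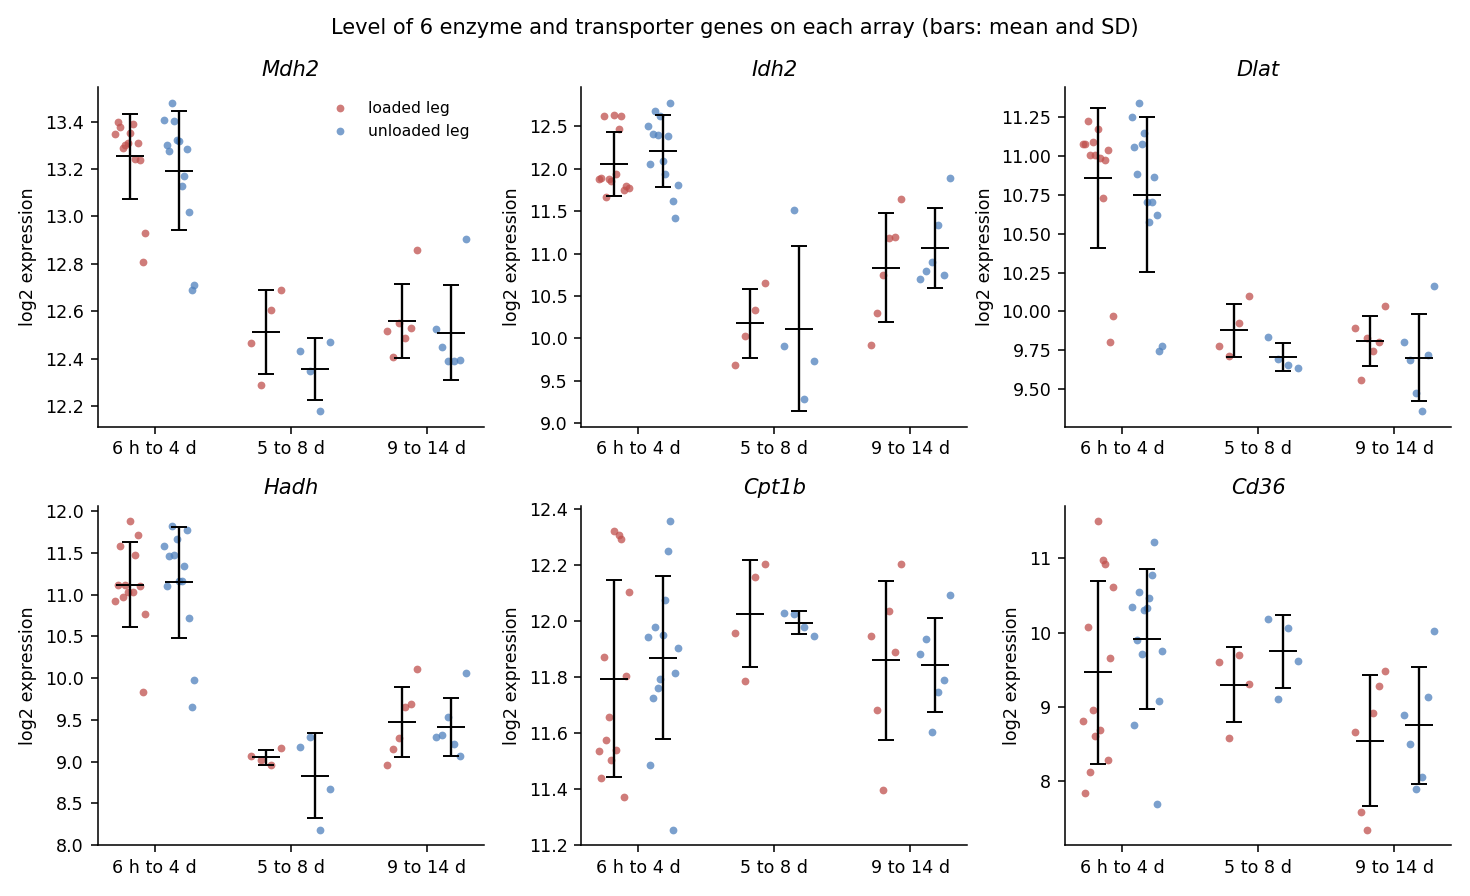
Log2 expression of 6 genes on each array, by window and leg (loaded left, unloaded right), with the group mean and SD; each panel has its own vertical axis, which does not start at 0. Mdh2, Idh2, Dlat and Hadh are lower in the later windows, Cpt1b lies at the same height in all 3 windows, and Cd36 spreads over more than 3 log2 units at 6 h to 4 d.

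The rest of the falling subset acts around the same steps. Acadm, the medium-chain acyl-CoA dehydrogenase, was 1.94-fold lower in loaded (SE 0.28, adjusted p = 0.0075) and 1.98-fold lower in unloaded legs (SE 0.31, adjusted p = 0.0117) at 9 to 14 d. Acaa2, the mitochondrial thiolase, was 1.92-fold and 1.96-fold lower (adjusted p = 5.74e-04 and 0.00198), and Echs1, the short-chain enoyl-CoA hydratase, 1.46-fold and 1.33-fold lower (adjusted p = 0.00342 and 0.0458). The Echs1 call in unloaded legs was lost in 14 of 29 alternatives, where the difference came as near to 0 as -0.10. Acads, for short chains, and Acadvl, for very long chains, fell at 9 to 14 d in both legs, by 0.47 and 0.53 in loaded and by 0.65 and 0.67 in unloaded legs. Acadvl in loaded legs did not pass with array quality weights, within the shared date code or without rat 47, 49 or 51 singly. Cpt2, the inner-membrane carnitine palmitoyltransferase, fell by 0.58 in loaded legs (adjusted p = 0.0353) and by 0.79 in unloaded legs (adjusted p = 0.00546). Its loaded value did not pass with array quality weights, with date codes in the fit or after leaving out rat 15, 29, 47, 49, 51 or 57 singly.

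Hadha and Hadhb encode the subunits of the trifunctional protein, which handles long chains. Hadhb fell at 9 to 14 d by 0.56 in loaded legs (SE 0.16, adjusted p = 0.0074) and by 0.49 in unloaded legs (SE 0.13, adjusted p = 0.00397). Hadha had differences of -0.23 (SE 0.20, adjusted p = 0.372) and -0.28 (SE 0.17, adjusted p = 0.186) and did not pass. The intervals allow a fall of either size, so the 2 subunits are not shown to differ. Another, dimmer probe set of Hadha gave -0.65 in unloaded legs at 5 to 8 d, with an adjusted p of 0.0194 over all probe sets, against -0.45 for the set used.

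A further subset did not pass in either direction. Cpt1b, the muscle carnitine palmitoyltransferase that admits fatty acids to the mitochondrion, had a lowest, median and highest value of 11.40, 11.92 and 12.21 in loaded legs at 9 to 14 d, against 11.37, 11.66 and 12.32 at 6 h to 4 d. The difference was 0.07 (SE 0.15, adjusted p = 0.748) in loaded and -0.03 (SE 0.12, adjusted p = 0.87) in unloaded legs, with 95% intervals of -0.24 to 0.38 and -0.27 to 0.22. Acadl, the long-chain acyl-CoA dehydrogenase, had 0.27 (adjusted p = 0.215) and 0.11 (adjusted p = 0.597). The enzymes that prepare unsaturated fatty acids for the spiral had positive differences that did not pass: for Eci1, the enoyl-CoA isomerase, 0.55 in loaded legs (adjusted p = 0.0605) and 0.47 in unloaded legs (adjusted p = 0.0783), and for Decr1, the dienoyl-CoA reductase, 0.73 (adjusted p = 0.0825) and 0.55 (adjusted p = 0.0907).

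Electron carriers link fat oxidation to the respiratory chain. For Etfa and Etfb, the subunits of the electron transfer flavoprotein, the differences at 9 to 14 d were -0.20 and -0.24 in loaded and -0.35 and -0.41 in unloaded legs, and none of the 4 values passed. At 5 to 8 d Etfb had -0.33 (adjusted p = 0.111) in loaded legs and fell by 0.60 in unloaded legs (SE 0.21, adjusted p = 0.029). Etfdh, which passes the electrons on to ubiquinone, had -0.30 (adjusted p = 0.16) in loaded legs and fell by 0.46 in unloaded legs (SE 0.19, adjusted p = 0.0475), a call lost in 17 of the alternatives. At 5 to 8 d Etfdh had -0.27 (adjusted p = 0.314) in loaded legs and fell by 0.64 in unloaded legs (SE 0.22, adjusted p = 0.0243).

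At the entry of fat into the cell, Acsl1, which couples fatty acids to coenzyme A, had -0.44 (SE 0.27, adjusted p = 0.193) in loaded legs and fell by 0.62 in unloaded legs (SE 0.24, adjusted p = 0.0372) at 9 to 14 d, a call lost in 10 of the alternatives. Cd36, the fatty acid transporter of the cell surface, varied widely at 6 h to 4 d. In loaded legs it had a lowest, median and highest value of 7.34, 8.79 and 9.48 at 9 to 14 d, against 7.83, 8.96 and 11.50 at 6 h to 4 d, and in unloaded legs 7.89, 8.70 and 10.03, against 7.69, 10.31 and 11.22. The ranges overlapped. Cd36 had -0.92 (SE 0.49, adjusted p = 0.132) in loaded legs and fell by 1.17 in unloaded legs (SE 0.39, adjusted p = 0.0184), which did not pass without rat 49, without rat 51, with the date code as a block or within the shared date code. At 5 to 8 d it had -0.17 in loaded and -0.17 in unloaded legs. Cd36 is also made by endothelial cells, adipocytes and macrophages.

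These 4 comparisons share their early samples within each leg and their rats between the legs. In all 4, 17 genes passed as lower, where 6.37% of all genes did: the 11 cycle genes, Pdhb, Dlat, Acadm, Acaa2, Hadh and Echs1. In none of the 4 did 6 genes pass: Acadl, Hadha, Cpt1b, Etfa, Eci1 and Decr1.

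The date codes bear on these counts. The rats of the code that covers all 3 windows are 4 at 6 h to 4 d, among them rats 35 and 37, 2 at 5 to 8 d and 4 at 9 to 14 d. Within this code the median differences at 9 to 14 d against 6 h to 4 d in loaded legs were -0.62 for the cycle, -0.69 for pyruvate dehydrogenase and -0.57 for fat oxidation, and 8 of the 32 genes passed as lower, where 1.78% of all genes did: Idh2, Idh3b, Idh3g, Sucla2, Mdh2, Acadm, Acaa2 and Hadh. In unloaded legs the 3 medians were -0.49, -0.67 and -0.37, and 0 of the 32 genes passed, where 2.64% of all genes were lower. At 5 to 8 d the code gave -0.68, -0.70 and -0.63 in loaded and -0.56, -0.61 and -0.36 in unloaded legs, and 0 members passed in either, where 0% and 0.0646% of all genes were lower. A fit to all rats with the date code as a block gave 14 and 19 genes lower in loaded legs at 5 to 8 d and 9 to 14 d. There 3.15% and 7.14% of all genes were lower. In unloaded legs 9 and 9 genes passed as lower, where 2.76% and 8.15% of all genes were lower. The early side of these differences again rests on the 4 early rats of the shared date code. The other early rats have codes without later rats and add only to the estimate of the spread. It is therefore not a check on further early rats. In unloaded legs at 9 to 14 d the 9 were Idh3b, Idh3g, Dld, Sucla2, Mdh2, Pdhb, Acads, Hadh and Hadhb, so that Cs, Idh2 and Dlat were among those that did not pass in this fit. In loaded legs at 9 to 14 d Idh3a, Mdh1 and Cpt2 no longer passed. Leaving out rats 35 and 37 removes 2 of the 4 early rats of the shared date code. Then 20 genes were lower in loaded legs at 5 to 8 d and 22 at 9 to 14 d (14.9% and 17.2% of all genes). In unloaded legs 25 and 27 were lower (15.1% and 19.4% of all genes).

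Markers of fibre type and of other cells moved over the same windows, and their part in the results above was not tested. Of 8 fast-fibre contractile genes, 6 were lower in loaded and 4 in unloaded legs at 9 to 14 d, with medians of -0.36 and -0.39. Of 9 slow-fibre genes, 1 was higher and 0 lower in loaded legs and 3 were lower in unloaded legs, and their summed level overlapped: the mean over the 9 genes ranged between 6.98 and 12.08 in loaded legs at 9 to 14 d, against 7.03 to 12.33 at 6 h to 4 d. Of all genes, 29% were higher and 15.2% lower in loaded legs and 28.7% and 16.9% in unloaded legs. Of 8 macrophage markers, 3 were higher in loaded and 5 in unloaded legs, with a mean between 7.17 and 9.32 in loaded legs at 9 to 14 d, against 6.99 to 8.43, and between 7.54 and 9.75 in unloaded legs, against 7.05 to 8.21. Of 8 adipocyte markers 1 was lower in each leg, of 5 endothelial markers 1 was lower in each leg, and of 7 fibroblast markers 1 was lower in loaded and 2 in unloaded legs.

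Related genes around the 32 are given beside the shares of all genes in the same comparison, unloaded legs at 9 to 14 d against 6 h to 4 d, which were 28.7% higher and 16.9% lower. Loaded legs are given for Ppargc1a only. Like the markers above, the related genes were not checked within the shared date code or with the date code as a block. In this comparison fewer of the 32 genes passed there, so these differences cannot be credited to time alone. Of 7 other cycle genes tested at 9 to 14 d in unloaded legs, 1 was higher and 3 lower than at 6 h to 4 d. Sdha, Sdhb and Sdhc, subunits of succinate dehydrogenase, fell by 0.79, 0.80 and 0.50, and Aco1, the cytosolic aconitase, rose by 0.62. Of 10 partners and regulators of pyruvate dehydrogenase, 1 was higher and 6 lower. Pdk2, a kinase that inactivates the complex, fell by 0.70, and Pdpr, a regulator of its phosphatase, by 0.72, while Pdhx, the subunit that holds Dld to the core, fell by 0.85. Pdk3, another inhibiting kinase, rose by 0.93 (adjusted p = 4.64e-06). Pdk4, the kinase induced by fasting, fell by 0.79 (SE 0.28, adjusted p = 0.0249).

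In fatty acid uptake, storage and activation, 5 of 16 genes were higher and 4 lower, shares near those of all genes. Plin2, a coat protein of lipid droplets, had a lowest, median and highest value of 9.63, 10.47 and 11.32 in unloaded legs at 9 to 14 d, against 8.20, 8.69 and 9.15 at 6 h to 4 d, without overlap, and rose by 1.82 (SE 0.21, adjusted p = 4.76e-07). The acyl-CoA synthetase genes went in opposite directions, with a rise of Acsl3 by 1.67 and a fall of Acsl6 by 2.15. Mlycd, which degrades malonyl-CoA, the inhibitor of the carnitine shuttle, fell by 0.96. Of 12 other fat oxidation genes 1 was higher and 2 lower, which is no more than the shares of all genes. Cpt1a, the carnitine palmitoyltransferase known from liver, rose by 1.00 (SE 0.18, adjusted p = 1.26e-04) while Cpt1b had -0.03. Ech1, a dienoyl-CoA isomerase, fell by 0.63. Of 5 peroxisomal genes 0 were higher and 1 lower, Ehhadh, the peroxisomal bifunctional enzyme, which fell by 0.84.

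Genes that feed the cycle from amino acids and malate also split. Of 7 anaplerotic and malate-aspartate shuttle genes, 1 was higher and 5 lower. Me2 and Me3 encode mitochondrial malic enzymes that turn malate into pyruvate. Me2 rose by 2.01 (SE 0.15, adjusted p = 1e-09) and Me3 fell by 1.40 (SE 0.20, adjusted p = 8.86e-06). Of 8 ketone and branched-chain enzymes 0 were higher and 3 lower, with falls of 1.22 for Dbt and 0.85 for Bckdhb, subunits of the branched-chain keto acid dehydrogenase.

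Of 13 transcriptional regulators of oxidative genes, 1 was higher and 8 lower. Perm1, a muscle regulator of oxidative genes, fell by 2.42 (SE 0.54, adjusted p = 9.44e-04), Prkaa2, a catalytic subunit of the AMP-activated kinase, by 0.81, Ppard by 0.81 and Sirt3, the mitochondrial deacetylase, by 0.50. Esrra, the estrogen-related receptor alpha, fell by 0.42 (adjusted p = 0.0203), and Ppara, the fatty acid receptor, by 0.71 (adjusted p = 0.0069). Ppargc1a, the coactivator PGC-1 alpha, had a difference of -1.07 (SE 0.41, adjusted p = 0.0356) in loaded legs, which passed, and of -0.64 (SE 0.50, adjusted p = 0.305) in unloaded legs, which did not.

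The promoters of the members, whether or not they fell, were read from RefSeq (assembly GRCr8, 250 bases before to 50 bases after the annotated start), which held 27 of the 32 genes. Idh3a, Acadl, Acaa2, Cpt1b and Decr1 were not among them. The motif TCAAGGTCA of the estrogen-related receptors, searched on both strands, stood in 0 of the 27 promoters and in 145 of 33365 promoters of all genes (0.435%). The hexamer AGGTCA, which that motif contains and many nuclear receptors recognise, stood in 8 of 27 (29.6%), beside 16.2% of all promoters. The direct repeat of this hexamer with 1 base between, known from the peroxisome proliferator-activated receptors, stood in 0 of 27 and in 0.0539% of all. A match is only a description of the letters, and no match says nothing about the factors. The 27 promoters had a median GC content of 60.7% (40.7 to 70.0), beside 51.7% for all promoters.

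The promoters of Pdhb (chr15:19182539-19182838, + strand) and Dlat (chr8:59900769-59901068, - strand), the pyruvate dehydrogenase genes that passed as lower in all 4 comparisons, are shown with the hexamer in capitals, which starts at -4 in Pdhb and at -40 in Dlat, counted from the annotated start. Hadh (chr2:222504397-222504696, - strand), the gene with the largest fall, is shown beside them and held none of the 3 motifs. All are written 5′ to 3′ on the gene's own strand.
Pdhb: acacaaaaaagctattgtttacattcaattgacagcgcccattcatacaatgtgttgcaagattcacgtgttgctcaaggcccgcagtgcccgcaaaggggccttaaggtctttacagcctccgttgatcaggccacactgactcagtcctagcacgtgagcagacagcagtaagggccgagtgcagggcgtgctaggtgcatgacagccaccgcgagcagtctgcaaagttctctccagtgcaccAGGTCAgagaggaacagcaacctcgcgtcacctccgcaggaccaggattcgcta
Dlat: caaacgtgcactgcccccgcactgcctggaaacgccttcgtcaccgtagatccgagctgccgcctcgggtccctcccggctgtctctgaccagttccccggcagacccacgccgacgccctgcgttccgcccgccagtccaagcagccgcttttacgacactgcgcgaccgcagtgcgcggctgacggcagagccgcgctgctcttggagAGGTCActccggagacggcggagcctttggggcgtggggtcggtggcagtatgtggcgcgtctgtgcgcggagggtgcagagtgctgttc
Hadh: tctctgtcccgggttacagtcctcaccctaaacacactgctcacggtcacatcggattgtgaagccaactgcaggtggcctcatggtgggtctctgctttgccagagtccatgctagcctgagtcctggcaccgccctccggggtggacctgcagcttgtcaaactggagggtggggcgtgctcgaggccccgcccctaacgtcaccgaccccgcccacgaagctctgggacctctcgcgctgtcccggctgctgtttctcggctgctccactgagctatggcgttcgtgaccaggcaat

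The 2 subunits of the trifunctional protein are divergent neighbours: Hadha lies on the + strand (promoter window chr6:31907551-31907850) and Hadhb on the - strand (chr6:31907451-31907750), with starts 301 bases apart, so the windows share 200 bases. The Hadha window is shown with these shared bases in capitals.
Hadha: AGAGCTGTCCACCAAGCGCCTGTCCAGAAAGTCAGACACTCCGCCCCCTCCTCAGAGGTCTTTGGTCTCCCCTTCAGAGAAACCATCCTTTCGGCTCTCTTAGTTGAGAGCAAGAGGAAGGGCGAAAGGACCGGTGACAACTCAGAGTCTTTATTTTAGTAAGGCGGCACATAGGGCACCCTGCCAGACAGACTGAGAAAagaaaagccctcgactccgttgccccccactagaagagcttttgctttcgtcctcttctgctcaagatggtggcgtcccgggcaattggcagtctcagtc

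The leg comparison asks whether passive movement changed these enzymes in rats that were all paralysed. In the fit over all 23 rats with each rat as a block, 0 of the 32 genes passed as higher or lower in loaded legs, where 1.08% of all genes were higher and 1.82% lower. Here the p-values rest on the spread between rats of the loaded minus unloaded difference, pooled over the windows. At an unadjusted p under 0.05 there were 5 genes, 4 of them higher. The differences were small: 31 of 32 genes had a 95% interval within 1.5-fold in either direction. The median difference was 0.04 for the cycle, 0.07 for pyruvate dehydrogenase and -0.05 for fat oxidation, beside -0.01 for all genes.

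Sucla2 had the smallest adjusted p, with a difference of 0.10 (SE 0.04, adjusted p = 0.128), higher in the loaded leg of 19 of 23 rats. Cs was higher in 18 of 23 rats, by 0.07 (SE 0.03, adjusted p = 0.204), and Dlat in 17 of 23, by 0.12 (SE 0.05, adjusted p = 0.198). Cd36 had the largest difference, -0.39 (SE 0.18, adjusted p = 0.255), lower in the loaded leg of 15 of 23 rats, with a 95% interval of -0.76 to -0.01. The adipocyte markers had a median of -0.25 in the same fit, with 8 of 8 differences below 0 and 0 of 8 passing, and 5 of 5 endothelial markers lay below 0 with 0 passing. Their part in the Cd36 value was not tested.

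Within each window the count was again 0 of 32. At 6 h to 4 d and at 5 to 8 d, 0% of all genes were higher and 0% lower, and at 9 to 14 d 0.161% were higher and 0.108% lower. At an unadjusted p under 0.05 there was 1 member at 6 h to 4 d, 2 at 5 to 8 d and 0 at 9 to 14 d. The number of the 32 genes with a 95% interval within 1.5-fold was 31 at 6 h to 4 d, 23 at 5 to 8 d, where only 4 rats were available, and 30 at 9 to 14 d. In the third comparison of the leg difference between windows, 9 to 14 d against 5 to 8 d, 0 of the 32 genes passed, where 0% of all genes were higher and 0% lower.

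**Figure D4:**
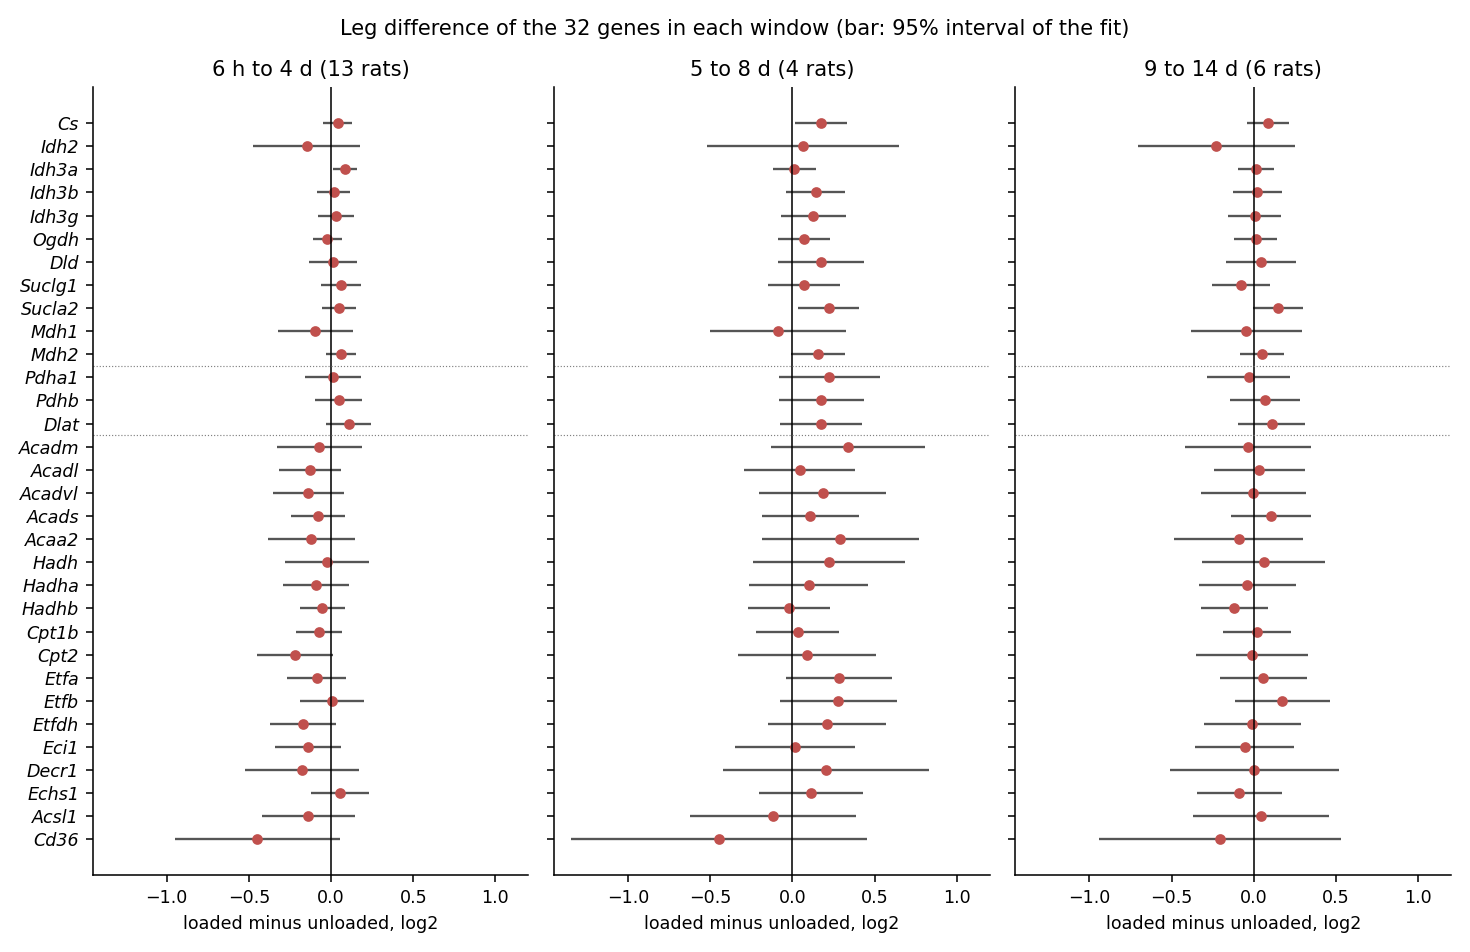
Loaded minus unloaded log2 difference of each of the 32 genes in each window, with the 95% interval of the fit; dotted lines separate the cycle (top), pyruvate dehydrogenase (middle) and fat oxidation (bottom). The points lie near 0, and the interval of Cd36 is the widest in every window.

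The signs of the leg difference were not the same in the windows. Of the 18 fat oxidation genes, 2 were above 0 at 6 h to 4 d (median -0.11), 15 at 5 to 8 d (median 0.11) and 8 at 9 to 14 d (median -0.01). Of the 11 cycle genes, 8, 10 and 8 were above 0, with medians of 0.03, 0.13 and 0.01. Within the date code that covers all windows the fat oxidation median was 0.17 at 6 h to 4 d and -0.11 at 5 to 8 d, so both signs turned. With array quality weights, 11 of the 32 genes passed as higher in loaded legs at 5 to 8 d, where 5.33% of all genes were higher and 7.4% lower under these weights, against 0 with equal weights.

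Leg differences of single rats were much larger than these medians. The mean of the 18 fat oxidation genes was lower by 0.96 in the loaded leg of rat 17, the largest gap, and higher by 0.52 in that of rat 23. The loaded minus unloaded difference of the 9 slow-fibre genes ranged from -4.42 (rat 17) to 4.03 (rat 51), with an SD of 2.12 over the 23 rats. The paired legs of rats 17, 23 and 51 correlated weakly (r 0.082, 0.205 and 0.183, median of all pairs 0.602). Their pairing is therefore uncertain, and so are these extremes. Rats 19, 21 and 27 (r 0.355, 0.319 and -0.349) were also treated as of uncertain pairing in an alternative. The slow-fibre difference had the same sign as that of fat oxidation in 20 of 23 rats, as that of pyruvate dehydrogenase in 18 and as that of the cycle in 17. Rats 17, 19, 21, 23, 27 and 51 were all among the 20, so that count shares their uncertain pairing. Of the 12 rats with more slow-fibre signal in the loaded leg, 10 had a higher fat oxidation mean there, and of the 11 with less, 10 had a lower one. Paired legs carry the same date code, and the part of fibre content in the leg differences was not tested.

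**Figure D5:**
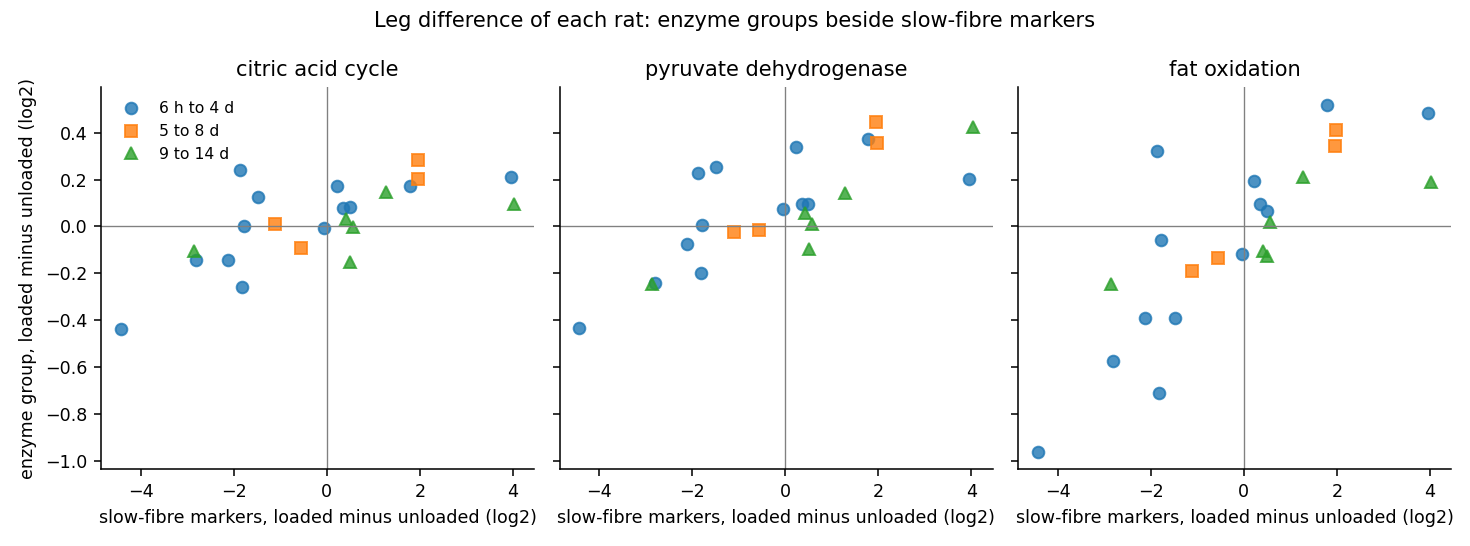
Loaded minus unloaded log2 difference of each rat, for the mean of 9 slow-fibre contractile genes (horizontal) and the mean of each enzyme group (vertical), with a symbol for each window. Fat oxidation differences run between -0.96 and 0.52 and share the sign of the slow-fibre difference in 20 of 23 rats.

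Of the related genes, 3 passed in the leg comparison over all 23 rats, where 1.08% of all genes were higher and 1.82% lower. Pdk4 fell by 0.19 in loaded legs (SE 0.05, adjusted p = 0.034, lower in 18 of 23 rats). Me3 rose by 0.25 (SE 0.06, adjusted p = 0.0291, higher in 19 of 23 rats) and Acsl6 by 0.25 (SE 0.06, adjusted p = 0.0347, higher in 20 of 23 rats). These 3 belong to the lists of pyruvate dehydrogenase regulators, of anaplerosis and of fatty acid uptake, in which 1 of 10, 1 of 7 and 1 of 16 genes passed. No gene passed among 7 other cycle, 12 other fat oxidation, 5 peroxisomal, 8 ketone and branched-chain and 13 regulator genes. Over all these lists the calls were few, near the shares of all genes, and are no result about the lists.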

How the data were processed

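Expression in the gastrocnemius of 23 rats was read from 46 Affymetrix arrays. The deposited log2 values are RMA values, made by the authors with background correction, quantile normalisation and probe summary, per the submitters' processing notes; the RMA version is not given in the sources used here. They lay between 1.92 and 14.38, with array medians between 6.07 and 6.20. Of 26208 probe sets, 15088 carried 1 gene symbol in the platform annotation, 323 several and 10797 none. Probe sets above the array's median on at least 4 arrays were kept (14834), and the brightest per gene was tested (9289 genes).

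The loaded and unloaded legs were compared with limma 3.58.1 in R 4.3.3, with the rat as a block. Windows were compared within each leg. P-values were adjusted by the Benjamini-Hochberg method over all genes. The legs of a rat were paired by consecutive leg numbers, an inference from the labels; the deviations of 21 of 23 pairs correlated above 0.1 (median r 0.602, lowest -0.349). The fit was tested on simulated data. Alternatives covered the filter, normalisation, array weights, probe sets, date codes, the block and leaving out rats. They were read for the 32 members, not for the genes of the other lists. All 32 members and, from other lists, at most the 4 genes with the smallest p per list and comparison, plus Ppargc1a, Esrra, Ppara and Pdk4, are named. The members, lists and alternatives were chosen with earlier results of these data known. The number of arrays limits the precision.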

Additional observations from a re-analysis of the deposited data

Results flagged for a closer look

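Within each leg and window of 4 or 6 rats, and for the leg differences of those rats, 192 sets of values were looked at for a rat that lay far from the others, and 14 were found, 7 levels and 7 leg differences. Chance gives about 1 in 20.

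Rat 59 was highest in 6 of the levels at 9 to 14 d. In its loaded leg Mdh2 was at 12.86 (nearest other rat 12.55). In its unloaded leg Cs was at 11.92 (11.58), Suclg1 at 10.36 (10.03), Mdh2 at 12.91 (12.53), Hadhb at 11.82 (11.27) and Decr1 at 9.289 (8.274). The remaining level was Pdha1 in the unloaded leg of rat 41 at 5 to 8 d, at 9.621, below the nearest other rat at 10.36.

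The loaded minus unloaded log2 difference stood apart at 5 to 8 d for Pdhb (-0.1575, nearest other 0.2827) and Etfdh (-0.09352, nearest other 0.2891) in rat 41, for Sucla2 in rat 43 (0.4479, nearest other 0.1569) and for Acads in rat 53 (0.5022, nearest other -0.005563). At 9 to 14 d it stood apart for Idh3a in rat 49 (0.2141, nearest other -0.00564), for Ogdh in rat 51 (0.254, nearest other 0.0097) and for Sucla2 in rat 45 (-0.04499, nearest other 0.1394).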

How the results depend on the processing

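Of 2470 alternative values of the 88 gene results that passed, 2245 kept their direction and passed, 225 kept their direction and did not pass, and 0 turned direction. Most of these alternatives leave out 1 rat and share nearly all of the data, and only results that had passed were followed. A high kept share was therefore likely from the start. With only the rats of the date code that covers all windows, the counts against 6 h to 4 d were 0 at 5 to 8 d and 8 at 9 to 14 d in loaded legs, and 0 and 0 in unloaded legs; this setting has fewer rats. With the date code as a block they were 14 and 19 in loaded legs and 9 and 9 in unloaded legs, and the cause was not tested. That fit too sets the later windows against the early rats of the shared date code alone. Array quality weights gave 2 genes in the loading comparison over all rats, 11 at 5 to 8 d, 4 in the change of the loading difference at 5 to 8 d against 6 h to 4 d, and 4 in unloaded legs at 9 to 14 d against 5 to 8 d, each in place of 0, where 3.41%, 5.33%, 2.34% and 11.3% of all genes were higher (in the last also 12.5% lower); the cause was not tested. Leaving out 1 rat at a time gave 15 to 19 genes at 5 to 8 d and 19 to 24 at 9 to 14 d in loaded legs, and 18 to 26 and 21 to 27 in unloaded legs. Between the later windows it gave 0 to 1 in unloaded legs, the 1 without rat 43, and 0 in loaded legs. With no replicate block, all 7 leg comparisons gave 0 of the 32 genes, as with pairing. Small numbers of rats at 5 to 8 d and the single array per leg limit the precision.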
